A study of Mus musculus with 4 samples.

Results

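The genes described here are those of cholesterol and lipid synthesis, with the genes that sense and export sterol. They were taken by name from a list of 37 symbols, with no threshold on a measured value. The list was chosen with earlier results of these data known, so counts set beside shares of all genes are descriptions. Of the 37, 35 had a probe set that the platform annotation gives to that symbol alone, of 19938 genes measured in all. Acat2 and Nr1h2 had no such probe set and were not analysed here. By role, 6 of the 35 genes belong to the mevalonate arm, 11 to the arm from squalene to cholesterol, 6 regulate or serve the sterol sensor, 8 make or modify fatty acids and 4 belong to sterol efflux. The 17 genes of the first pair of arms are called sterol synthesis genes here.

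Neurons were cultured from the cortex of newborn pups (postnatal day 0) of a mixed SV129 x C57BL/6 strain. Some pups lacked Syt1 (synaptotagmin-1, a calcium sensor of vesicle release) and others were wild type, and the labels do not tie either genotype to a sample. On day 5 in vitro the knockdown cultures received lentiviruses with shRNAs against calmodulin (CaM), the calcium sensor protein that several genes encode. The rescue cultures received the same shRNAs and a wild-type CaM that those shRNAs do not target, and the control cultures received control lentiviruses. RNA was taken on day 14 to 15 in vitro and read on Affymetrix whole-transcript arrays. Each group had 2 samples, repeat 1 and repeat 2, and each deposited value was the ratio of a knockdown or rescue array to the control array of the same repeat. Values below are log2 ratios unless stated, so 0 is equality with control. A ratio holds no level of expression, so genes cannot be ranked by level and the labelled cell type could not be checked by the presence of its markers. In such bulk cultures fewer cells of a type and less RNA per cell cannot be told apart.

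Cells build cholesterol from acetyl-CoA through mevalonate, squalene and lanosterol. When sterol is scarce in the endoplasmic reticulum, the escort protein SCAP carries the SREBP transcription factors to the Golgi for cleavage, and INSIG proteins hold SCAP back when sterol is plentiful. SREBP2, the product of Srebf2, mainly drives sterol synthesis genes, while an SREBP1 isoform mainly drives fatty acid genes. Surplus sterol leaves through transporters that LXR receptors induce. The brain makes its own cholesterol, and both neurons and astrocytes carry the pathway.

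The stretches upstream of transcription starts are shown for the genes with the lowest knockdown values in each arm of the pathway for which a promoter was at hand, Hmgcs1 and Cyp51, and for Insig1, where a match to the core of an SREBP element was found. The sequences are RefSeq's, of build GRCm38.p6, and run 250 bases up to the start of transcription. Capitals mark CACNCCAC, the core of a sterol regulatory element, and CCAAT, the box bound by NF-Y, on either strand.
Hmgcs1 (chr13:119690101-119690350, plus strand): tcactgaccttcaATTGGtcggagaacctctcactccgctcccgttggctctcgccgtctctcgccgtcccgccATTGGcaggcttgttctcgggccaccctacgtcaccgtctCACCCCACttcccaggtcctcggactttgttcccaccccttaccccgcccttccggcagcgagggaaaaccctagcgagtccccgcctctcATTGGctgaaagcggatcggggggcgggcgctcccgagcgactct
Cyp51 (chr5:4104698-4104947, minus strand): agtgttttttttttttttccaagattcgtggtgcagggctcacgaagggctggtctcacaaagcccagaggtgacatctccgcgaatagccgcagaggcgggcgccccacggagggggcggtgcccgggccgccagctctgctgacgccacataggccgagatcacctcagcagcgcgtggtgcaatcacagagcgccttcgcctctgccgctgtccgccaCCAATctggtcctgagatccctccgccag
Insig1 (chr5:28071162-28071411, plus strand): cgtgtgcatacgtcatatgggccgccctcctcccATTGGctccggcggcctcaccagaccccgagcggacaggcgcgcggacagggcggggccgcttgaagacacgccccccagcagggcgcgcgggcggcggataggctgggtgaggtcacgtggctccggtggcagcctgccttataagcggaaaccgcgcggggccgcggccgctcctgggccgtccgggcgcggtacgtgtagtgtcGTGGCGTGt

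In Hmgcs1 the element core CACCCCAC lay 136 to 129 bases before the start, with 3 CCAAT boxes around it. Insig1 held the core on the opposite strand 9 to 2 bases before its start, and Cyp51 held 1 CCAAT box and no core. A promoter was found for 27 of the 35 genes, in 36 windows, since some genes have several starts. Of the 14 sterol synthesis genes among them, 14 held a CCAAT box, beside 38.8% of the 15614 array genes with a promoter, and 1 held the element core, beside 6.35%. A GC box (GGGCGG), the site of Sp1, was in 13 of the 14, beside 49.3%. Of 5 fatty acid genes 1 held a CCAAT box, 2 a GC box and 0 the element core. Of 3 efflux genes 1 held a CCAAT box and 2 a GC box. Matches of different motifs overlapped in 0 of the 36 windows. A match is a description of the sequence, not a site in use.

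The calmodulin genes checked the labels. Calm2 stood at -1.08 and -1.72 in the knockdown and fell there (mean -1.40, SE 0.18, limma adjusted p = 0.0297; 0.0692 from the knockdown columns alone), and Calm3 stood at -1.32 and -2.40 (adjusted p = 0.0577). Both also lay below control in the rescue, Calm2 at -0.84 and -1.28 and Calm3 at -2.41 and -3.55. Knockdown repeat 2 was the most widely spread of the arrays, with a standard deviation across genes of 0.349, beside 0.232 to 0.243 in the other 3. Over all genes 61 passed limma's test at an adjusted p under 0.05 in the knockdown against control (0.306% of genes), 0 in the rescue against control (0%, with 7.44% at an unadjusted p under 0.05) and 14 in the knockdown against the rescue (0.0702%).

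Against control, transcripts of the sterol synthesis genes lay lower in the knockdown along the whole pathway, but none passed the test over all genes. Medians over the 17 genes were -0.38 in repeat 1 and -0.81 in repeat 2, beside -0.02 and 0.02 over all genes. Of the 17, 15 lay below control in both repeats, beside 31.1% of all genes. In limma 0 of the 35 lipid genes had an adjusted p under 0.05. At an unadjusted p under 0.05, 16 were lower (9.04% of all genes) and 1 higher (6.93%), and 11 of the 16 were sterol synthesis genes. With the repeat as a block, which takes out the shift that arrays of a repeat share, 11 were lower (3.48% of all genes) and 1 higher (1.91%). Those lower were Hmgcs1, Pmvk, Mvd, Fdps, Fdft1, Sqle, Lss, Cyp51, Nsdhl, Dhcr7 and Srebf2, and Abca1 was higher. In the same samples astrocyte markers had medians of 0.27 and 0.34 and neuron markers of -0.25 and -0.36, and their part in these values was not tested. Because both groups of a repeat share 1 control array, a block removes that array's own spread too, and its p against control leaves this error out.

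The mevalonate arm makes isoprenoid units from acetyl-CoA. Hmgcs1, which makes HMG-CoA, stood at -0.62 and -1.63 in the 2 knockdown repeats, a mean 2.18-fold below control (log2 -1.12, SE 0.23, n = 2, limma adjusted p = 0.0861; 0.00496 with the block). In repeat 2 only 0.0702% of all genes lay at or below it, and in repeat 1 1.43% did. It was the only 1 of the 35 genes at least 1.5-fold below control in both repeats, a place held by 0.757% of all genes.

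Mvk, which phosphorylates mevalonate, stood at -0.07 and -0.52. Pmvk, the kinase of the next step, stood at -0.53 and -0.45 (limma adjusted p = 0.131; 0.0445 with the block) and was the only gene of this arm that was lower in repeat 1 than in repeat 2. Mvd, which decarboxylates the product to isopentenyl diphosphate, stood at -0.41 and -0.89 (mean -0.65, SE 0.14, limma adjusted p = 0.0982; 0.0217 with the block). So each of these enzymes lay below control in both repeats, and 3 of the 4 with Hmgcs1 were further below in repeat 2.

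Idi1, which isomerises isopentenyl diphosphate, was near control in repeat 1 (-0.03) and at -0.94 in repeat 2. Both of its probe sets had this split, at 0.05 and -0.96 for the first of them and -0.11 and -0.92 for the other. Fdps, which joins the units to farnesyl diphosphate, stood at -0.38 and -0.89 (mean -0.64, SE 0.15, limma adjusted p = 0.108; 0.0217 with the block).

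The next enzymes commit farnesyl units to sterol. Fdft1, squalene synthase, stood at -0.47 and -1.28 (mean -0.88, SE 0.18, limma adjusted p = 0.0912; 0.0217 with the block), and its 2 probe sets gave -0.46 and -1.13, and -0.48 and -1.43. Sqle, which adds the epoxide, stood at -0.57 and -1.11. Its mean was 1.79-fold below control (log2 -0.84, SE 0.15, n = 2) and came nearest to the threshold among the 35 genes (limma adjusted p = 0.0673; 0.0139 with the block).

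Lss, which closes the rings to lanosterol, stood at -0.45 and -0.81 (limma adjusted p = 0.0928; 0.0293 with the block). Cyp51, the lanosterol demethylase, stood at -0.30 and -1.27, the widest gap between repeats in this arm (mean -0.78, SE 0.23, limma adjusted p = 0.173; 0.0133 with the block). Thus the steps around lanosterol all lay below control in both repeats.

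The enzymes that trim lanosterol to cholesterol were less uniform. Msmo1, Nsdhl and Hsd17b7 act together to remove methyl groups from the sterol ring. Nsdhl stood at -0.38 and -0.71 (mean -0.55, SE 0.13, limma adjusted p = 0.111; 0.0357 with the block), while Msmo1 was at 0.11 and -0.69 and Hsd17b7 at -0.39 and 0.13. Msmo1 and Hsd17b7 were the 2 sterol synthesis genes with repeats on opposite sides of control. Dhcr7, the reductase of the last step, stood at -0.33 and -0.91 (mean -0.62, SE 0.16, limma adjusted p = 0.124; 0.0374 with the block). Tm7sf2, a sterol reductase, stood at -0.15 and -0.47, Ebp, a sterol isomerase, at -0.09 and -0.36, and Sc5d, a desaturase, at -0.01 and -0.58. The 4 lowest means over the pathway were those of Hmgcs1, Fdft1, Sqle and Cyp51, and the means nearest to 0 were those of Hsd17b7 (-0.13) and Ebp (-0.22).

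**Figure D1:**
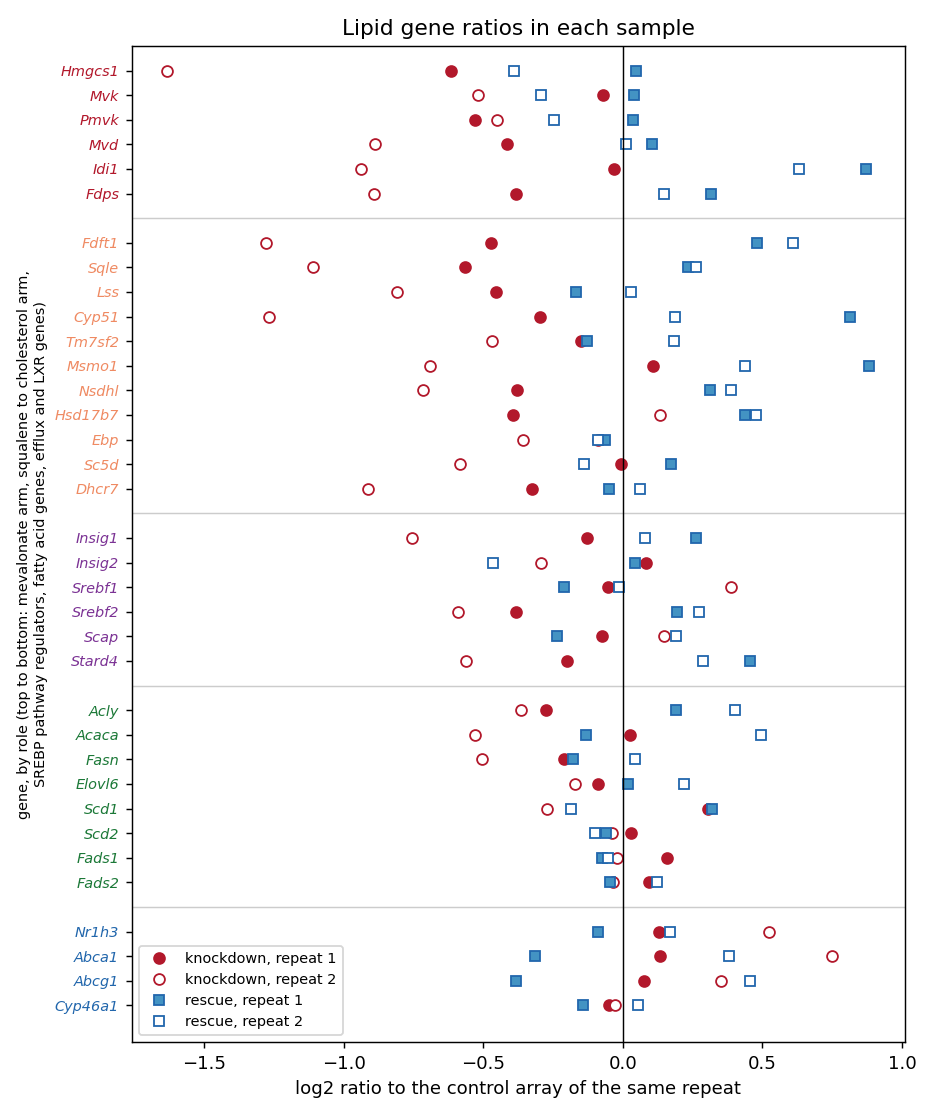
Log2 ratio to the control array of the same repeat (x axis) of each of the 35 lipid genes (y axis, grouped by role) in every sample. Red circles are knockdown repeats and blue squares rescue repeats, filled for repeat 1 and open for repeat 2. Knockdown symbols of the sterol synthesis genes at the top lie mostly left of 0, furthest for Hmgcs1 in repeat 2 (-1.63), and their rescue symbols lie mostly near or right of 0.

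The knockdown repeats differed for these genes. Repeat 2 was also the more widely spread over all genes (standard deviation 0.349, beside 0.243 in repeat 1). In the knockdown 15 of the 17 sterol synthesis genes were lower in repeat 2 than in repeat 1, beside 46.7% of all genes. Pmvk and Hsd17b7 were the exceptions. The 46.7% covers all genes, not only those below control. The 8 fatty acid genes were all lower in repeat 2, and the 4 efflux genes were all higher. After the columns were centred and scaled to the same spread, the median of sterol synthesis genes in the knockdown was -0.48, beside -0.55 as deposited (both over repeat means). All 17 repeat means were below 0 under both settings, which does not show whether the gap between repeats remained after scaling.

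In the rescue against control most sterol synthesis genes lay near or above control, and none passed the test. The 17 genes had medians of 0.17 and 0.15 in the 2 repeats, beside -0.01 and -0.01 over all genes. Of these genes 9 were above control in both repeats (24.9% of all genes) and 1, Ebp, below in both (29.8%). In limma 0 of the 35 lipid genes passed (smallest adjusted p = 0.521). At an unadjusted p under 0.05, 7 were higher (2.95% of all genes) and 0 lower (4.49%), and the block called 0 (0.125% of all genes).

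Idi1 stood at 0.87 and 0.63, a mean 1.68-fold above control (log2 0.75, SE 0.20, n = 2, limma adjusted p = 0.521; 0.0737 with the block), and 99.7% of all genes lay at or below it in repeat 1. No other of the 35 genes exceeded control by 1.5-fold or more in each repeat (0.16% of all genes did). Msmo1 stood at 0.88 and 0.44 (mean 0.66, SE 0.20, limma adjusted p = 0.564; 0.0718 with the block). These 2 genes passed when the rescue columns were fitted alone, a fit in which 176 of 19938 genes passed.

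Fdft1 stood at 0.48 and 0.61 in the rescue, and Hsd17b7 and Nsdhl lay between 0.31 and 0.48. Cyp51 was at 0.81 in repeat 1 and 0.19 in repeat 2, Fdps at 0.32 and 0.15, and Sqle at 0.24 and 0.26. All of these lay above control in both repeats, though none passed the test.

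The early enzymes Hmgcs1, Mvk and Pmvk lay below control in rescue repeat 2. Hmgcs1 stood at 0.05 and -0.39 in the rescue, Mvk at 0.04 and -0.29, and Pmvk at 0.04 and -0.25. Mvd was at 0.10 and 0.01. Among later enzymes Lss was at -0.17 and 0.03, Tm7sf2 at -0.13 and 0.18, Sc5d at 0.17 and -0.14, Dhcr7 at -0.05 and 0.06 and Ebp at -0.07 and -0.09. For 7 of these 9 genes the repeats lay on both sides of control.

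**Figure D2:**
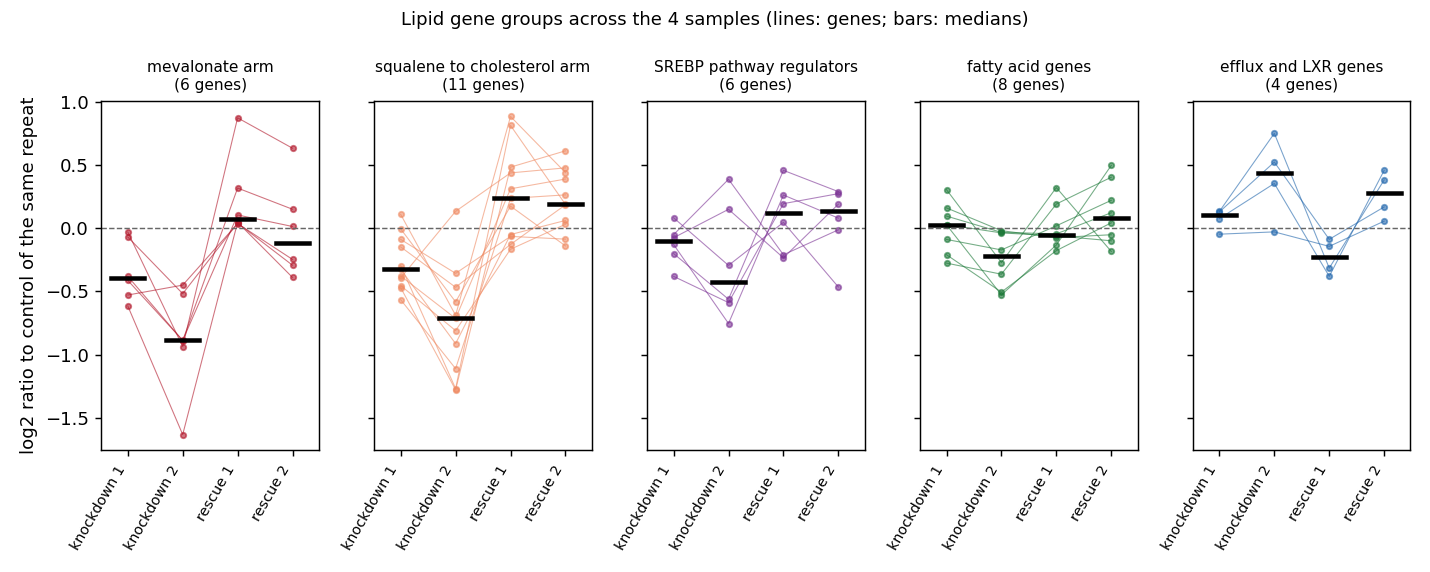
Log2 ratio to the control array of the same repeat (y axis) in the knockdown and rescue samples (x axis), in a panel for each role. Thin lines join the values of 1 gene and black bars are medians. The medians of the mevalonate arm were -0.40 and -0.89 in the knockdown, against 0.08 and -0.12 in the rescue, and those of the efflux genes 0.10 and 0.44 in the knockdown, against -0.23 and 0.27 in the rescue.

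Set against the rescue, the knockdown was lower for every sterol synthesis gene in each repeat. The control array of a repeat cancels in this difference, since it stands under both ratios. The limma fit without the block does not pair the repeats, so the spread of that array stays in its error. The fit with the block takes it out. The 17 genes had medians of -0.66 in repeat 1 and -0.97 in repeat 2, beside -0.01 and 0.05 over all genes, and the difference was below 0 in both repeats for all 17, beside 24.3% of all genes. For 15 of the 17 both knockdown values lay below both rescue values (15.1% of all genes), Mvk and Sc5d being the exceptions. At least 1.5-fold lower in both repeats were 8 of them (0.958% of all genes), and 1 further lipid gene, Stard4. In limma 0 of the 35 genes passed over all genes (smallest adjusted p = 0.167). At an unadjusted p under 0.05, 16 were lower (4.01%) and 0 higher (2.81%). With the repeat as a block 5 were lower (0.431% of all genes) and 0 higher (0.186%). Of the 35 genes, 12 had both knockdown values below control and both rescue values above (4.45% of all genes), and 0 the reverse (4.42%). Astrocyte markers had medians of 0.44 and 0.36 in the same differences, above 0 for 10 of 10 genes in repeat 1 and 9 of 10 in repeat 2. Neuron markers had medians of -0.04 and -0.16, and the part of either list in the sterol synthesis values was not tested.

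Fdft1 had the largest difference, at -0.95 and -1.89 in the 2 repeats. The knockdown mean was 2.68-fold below the rescue mean (log2 -1.42, SE 0.26, n = 2 each, limma adjusted p = 0.167; 0.0328 with the block). Cyp51 differed by -1.11 and -1.46 (mean -1.28, SE 0.33, adjusted p = 0.351; 0.0143 with the block), and Idi1 by -0.90 and -1.57 (mean -1.24, SE 0.28, adjusted p = 0.299; 0.0310 with the block). Sqle differed by -0.80 and -1.37 (2.13-fold lower, adjusted p = 0.194; 0.0407 with the block) and Msmo1 by -0.78 and -1.13 (adjusted p = 0.429; 0.0419 with the block). These 5 genes were those that passed with the block.

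The other members at least 1.5-fold lower in both repeats were Nsdhl (-0.69 and -1.10), Fdps (-0.70 and -1.04) and Hmgcs1 (-0.66 and -1.24). For Hmgcs1 most of the mean difference of -0.95 lay in the knockdown, at -1.12 against -0.17 in the rescue. For Idi1 most of it lay in the rescue, at -0.48 in the knockdown against 0.75 in the rescue, and Msmo1 likewise had -0.29 in the knockdown against 0.66 in the rescue. Differences at the weak end were those of Ebp (-0.02 and -0.27), Mvk (-0.11 and -0.22) and Sc5d (-0.18 and -0.44).

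**Figure D3:**
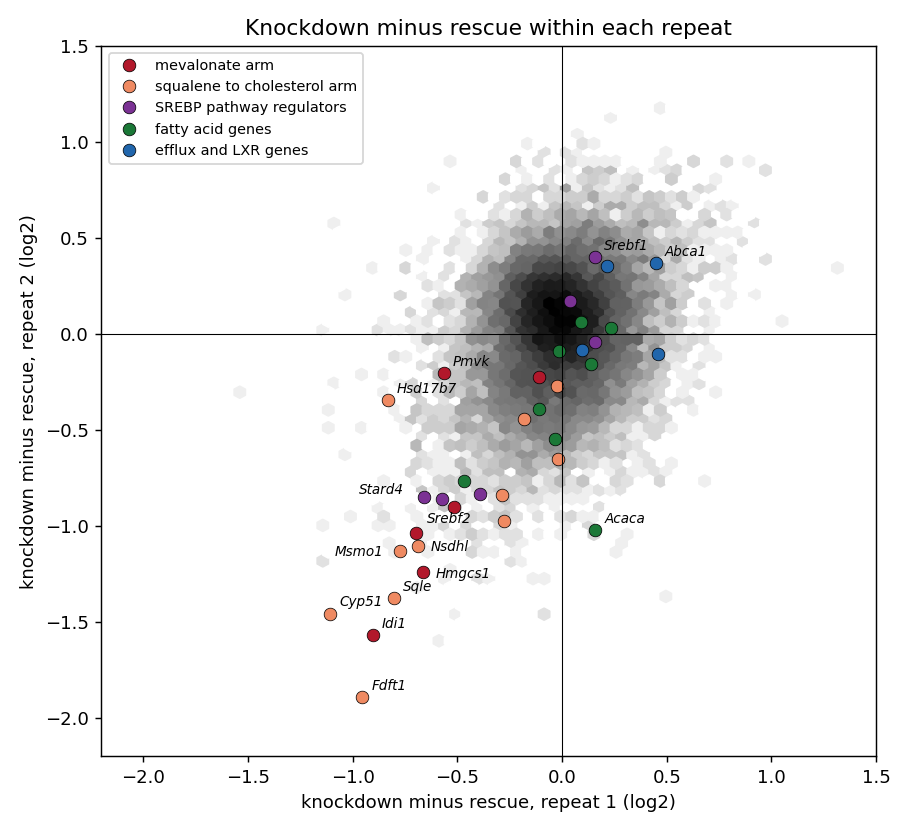
Knockdown minus rescue in repeat 1 (x axis) and repeat 2 (y axis), both on the log2 scale, for the 35 lipid genes (coloured by role) over all genes (grey, darker where more genes lie, genes beyond the axes not shown). Sterol synthesis genes lie in the lower left, out to Fdft1 at -0.95 and -1.89, and most fatty acid and efflux genes lie within the cloud of all genes.

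Of the 6 genes that regulate or serve the sterol sensor, Srebf2, Insig1 and Stard4 lay below control in both knockdown repeats. They lay above it in both rescue repeats. Srebf1, Insig2 and Scap did not have this pattern. Srebf2 itself stood at -0.38 and -0.59 in the knockdown, against 0.19 and 0.27 in the rescue. Its groups did not overlap, with a difference of -0.72 (SE 0.17, limma adjusted p = 0.306; 0.0955 with the block), and against control its mean of -0.49 passed with the block (adjusted p = 0.123; 0.0425 with the block). Insig1, which retains SCAP and is itself a target of SREBPs, stood at -0.13 and -0.75 in the knockdown, against 0.26 and 0.08 in the rescue (difference -0.61, adjusted p = 0.607; 0.164 with the block). Stard4, a cholesterol transfer protein, stood at -0.20 and -0.56 in the knockdown, against 0.46 and 0.29 in the rescue, which put it 1.69-fold lower in the knockdown (adjusted p = 0.341; 0.0827 with the block).

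Srebf1 had the opposite order, at -0.05 and 0.39 in the knockdown, against -0.21 and -0.01 in the rescue, with groups that overlapped (difference 0.28, SE 0.20, limma adjusted p = 0.993). The probe set is named by gene, so its isoforms are not separated. Insig2, the other retention protein, stood at 0.08 and -0.29 in the knockdown, against 0.05 and -0.47 in the rescue. Scap stood at -0.08 and 0.15 in the knockdown, against -0.23 and 0.19 in the rescue. Insig2 and Scap differed more between repeats than between groups.

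The fatty acid genes, often under SREBP1, lay closer to control than the sterol synthesis genes. Their medians were 0.03 and -0.22 in the knockdown, against -0.05 and 0.08 in the rescue. None of the 8 passed the test in any of the 3 comparisons, with or without the block. Over all genes 0.306% passed in the knockdown against control, 0% in the rescue against control and 0.0702% in the knockdown against the rescue. With the block the shares were 3.48% lower and 1.91% higher, 0.125%, and 0.431% lower and 0.186% higher, in the same order. A count of 0 among 8 genes lies near these shares. Knockdown minus rescue had medians of 0.04 and -0.27 in the 2 repeats, beside the -0.66 and -0.97 of the sterol synthesis genes. No test of the gap between these gene groups was made, since the genes of a list are not replicates.

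For 3 of the 8, Acly, Fasn and Elovl6, both knockdown values lay below both rescue values (15.1% of all genes). For Scd2 and Fads1 both lay above (16.5% of all genes). Acly, which makes cytosolic acetyl-CoA for both pathways, stood at -0.28 and -0.36 in the knockdown, against 0.19 and 0.40 in the rescue (difference -0.62, SE 0.17, limma adjusted p = 0.401). Acaca, which makes malonyl-CoA, stood at 0.03 and -0.53 in the knockdown, against -0.13 and 0.50 in the rescue, so that its difference was 0.16 in repeat 1 and -1.02 in repeat 2. Fasn, the fatty acid synthase, stood at -0.21 and -0.51 in the knockdown, against -0.18 and 0.04 in the rescue.

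Elovl6, an elongase, stood at -0.09 and -0.17 in the knockdown, against 0.02 and 0.22 in the rescue. Scd2, a stearoyl-CoA desaturase of brain, stayed within 0.10 of control in all 4 samples, at 0.03 and -0.04 in the knockdown, against -0.06 and -0.10 in the rescue. Scd1, its paralog, stood at 0.30 and -0.27 in the knockdown, against 0.32 and -0.18 in the rescue, so that its values differed more between repeats than between groups. Fads1 and Fads2, desaturases of polyunsaturated fatty acids, stood between -0.03 and 0.16 in the knockdown and between -0.08 and 0.12 in the rescue. Knockdown minus rescue was 0.24 and 0.03 for Fads1 and 0.14 and -0.16 for Fads2.

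Of the 4 efflux and LXR genes, 3 lay above control in both knockdown repeats, and Cyp46a1 lay just below it. Medians of the 4 genes were 0.10 and 0.44 in the knockdown, against -0.23 and 0.27 in the rescue. So repeat 1 lay below repeat 2 in each group. Abca1, which loads cholesterol on apolipoproteins, stood at 0.13 and 0.75 in the knockdown, against -0.32 and 0.38 in the rescue. Its knockdown mean of 0.44 (SE 0.20) passed against control only with the block (limma adjusted p = 0.327; 0.0478 with the block), and its groups overlapped. Nr1h3, the gene of an LXR receptor, stood at 0.13 and 0.52 in the knockdown, against -0.09 and 0.17 in the rescue.

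Abcg1, another sterol transporter, stood at 0.08 and 0.35 in the knockdown, against -0.38 and 0.46 in the rescue. Cyp46a1, the enzyme of neurons that hydroxylates cholesterol for export from the brain, stayed at -0.05 and -0.03 in the knockdown, against -0.14 and 0.06 in the rescue. Of these 4 genes 3 were above control in both knockdown repeats, beside 30.5% of all genes. In knockdown minus rescue 0 of the 4 passed (0.0702% of all genes did), with differences of 0.45 and 0.37 for Abca1 and 0.22 and 0.35 for Nr1h3.

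Lipid genes outside these 35 were taken from 2 lists. Of 22 other genes of sterol handling, 0 passed in any comparison (at most 0.306% of all genes did). Their medians lay between -0.10 and 0.02 in the 4 samples. With the block, 1 was higher (1.91% of all genes) and 2 lower (3.48%) in the knockdown against control. Both knockdown values lay below both rescue values for 5 of the 22 (15.1% of all genes) and above them for 3 (16.5%). Mylip, a ubiquitin ligase that LXR induces against lipoprotein receptors, stood at -0.72 and -0.88 in the knockdown, against -0.34 and 0.49 in the rescue. Gramd1c, a sterol transfer protein, stood at 0.32 and 0.92 in the knockdown, against -0.25 and 0.19 in the rescue, and Erlin1, a membrane protein of the endoplasmic reticulum, at -0.43 and -0.50 in the knockdown, against -0.01 and 0.24 in the rescue. Those 3 were the ones called with the block (limma adjusted p = 0.0297, 0.0201 and 0.0496). In the rescue the largest means of this list were those of Mbtps1, a protease that cleaves SREBPs (-0.27), Erlin2 (-0.25) and Stard3, a sterol transfer protein (-0.18).

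Of 26 other genes of fatty acid and glycerolipid metabolism, 0 passed in any comparison (at most 0.306% of all genes did). Their medians lay between -0.04 and 0.15. The block called 2 lower (3.48% of all genes) and 0 higher (1.91%) in the knockdown against control. Both knockdown values lay above both rescue values for 11 of the 26 (16.5% of all genes) and below them for 2 (15.1%). Knockdown minus rescue was above 0 for 16 of them in repeat 1 and 19 in repeat 2, with medians of 0.16 and 0.15. Acsl4, an acyl-CoA synthetase that prefers arachidonate, stood at -0.58 and -1.31 in the knockdown, against -0.32 and -0.55 in the rescue (knockdown mean -0.94, SE 0.18, limma adjusted p = 0.0737; 0.00861 with the block). It was below control in all 4 samples. Dgat2, which makes triglyceride, stood at -0.17 and -0.71 in the knockdown, against 0.28 and -0.25 in the rescue, and Elovl7, an elongase, at 0.34 and 0.48 in the knockdown, against 0.18 and -0.08 in the rescue. Thrsp, a regulator of lipogenesis, had its repeats on opposite sides in the knockdown, at 0.38 and -0.59, and stood at -0.17 and -0.96 in the rescue. Elovl2, an elongase of polyunsaturated fatty acids, stood at 0.37 and -0.26 in the knockdown, against -0.04 and 0.65 in the rescue.

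Markers of the cell types that such cultures can hold were set beside these values. Of 10 astrocyte markers, which had medians of 0.27 and 0.34 in the knockdown, against -0.08 and -0.03 in the rescue, 0 passed and 3 were higher in the knockdown against control with the block (1.91% of all genes). All 10 had knockdown means above control, from 0.06 to 0.53, as with Sox9, a factor of glia, at 0.45 and 0.44 in the knockdown, against -0.22 and -0.19 in the rescue. Of 10 neuron markers, which had medians of -0.25 and -0.36 in the knockdown, against -0.09 and -0.24 in the rescue, 0 passed and 4 were lower in the knockdown against control with the block (3.48% of all genes). Their knockdown means ran from -0.89 to 0.62, with 7 below 0 and 3 above. The lowest mean was that of Gad1, at -0.65 and -1.14 in the knockdown, against -0.84 and -0.91 in the rescue. Slc17a7, a glutamate transporter of synaptic vesicles, stood at -0.57 and -1.04 in the knockdown, against -0.06 and -0.17 in the rescue. The highest was that of Nefl, at 0.56 and 0.67 in the knockdown, against 0.34 and -0.59 in the rescue. Medians of 11 oligodendrocyte lineage markers were 0.02 and 0.15 in the knockdown, against -0.08 and -0.12 in the rescue. Microglia markers, 8 in number, had medians of -0.40 and -0.02 in the knockdown, against -0.55 and -0.15 in the rescue. Endothelial markers had medians of -0.06 and 0.39 in the knockdown, against 0.04 and 0.22 in the rescue, and fibroblast markers -0.06 and 0.42 in the knockdown, against -0.08 and -0.16 in the rescue. None of the markers of these 4 lists passed. Without the block at most 0.306% of all genes passed in any comparison.

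**Figure D4:**
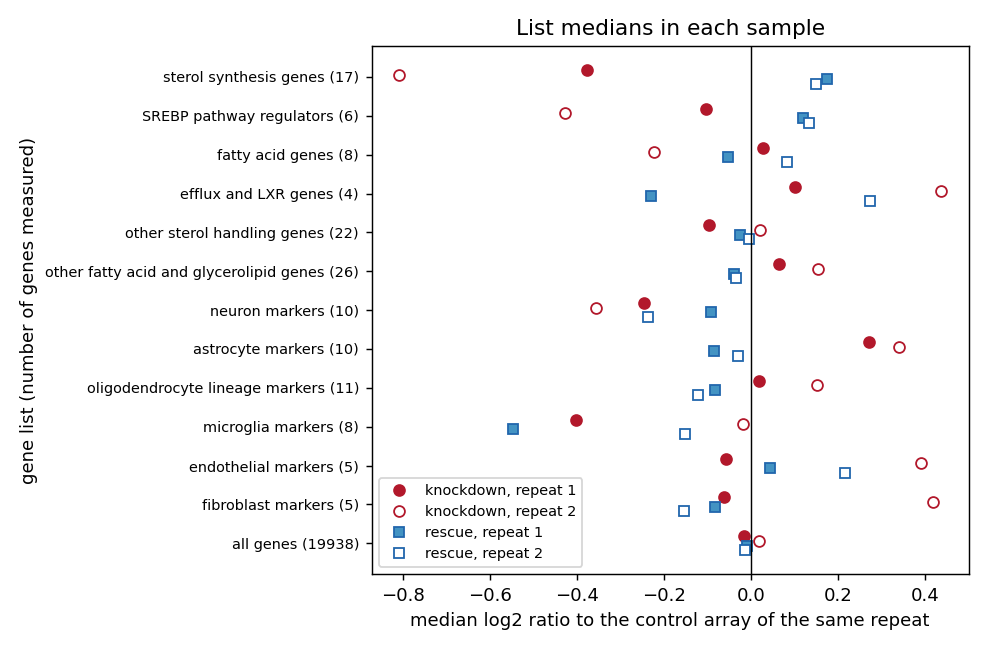
Median log2 ratio to the control array of the same repeat (x axis) of each gene list (y axis, with the number of genes) in the 4 samples, with symbols for knockdown and rescue repeats. In the knockdown sterol synthesis genes lie at -0.38 and -0.81, neuron markers at -0.25 and -0.36, and astrocyte markers at 0.27 and 0.34.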

How the data were processed

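The 4 samples, 2 knockdown and 2 rescue, were read on arrays, and the values the authors deposited are linear ratios of each array to its repeat's control array, per the labels. For background correction, summarization, normalization and build, the sources used here give nothing. The 2 control arrays were not analysed here. Precision is limited by the number of arrays, and whether the repeats were independent cultures is not stated, so the spread behind each p-value may be technical.

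Of 35399 probe sets, 21789 had exactly 1 symbol, 1621 several, and 11989 were unnamed here. Through Entrez identifiers 21698 matched RefSeq names, which changed 0 symbols. Log2 ratios were averaged per symbol (19938 genes, 999 from more than 1 probe set), with no centring. The fit used limma 3.58.1 in R 4.3.3, a coefficient for each group tested against 0 and their difference, two-sided, 2 residual and 6.11 prior degrees of freedom, with Benjamini-Hochberg adjustment over all genes at 0.05, and was checked on simulated data. Since the labels give samples of a repeat the same replicate date, an alternative fit had the repeat as a block. Deviations of same-numbered samples from their group means correlated at 0.305 across genes. Members, lists and rules were chosen with earlier results of these data known. All 35 members are described, and of other pathway lists up to 3 genes per comparison by mean change. Other alternatives were quantile normalization, scaled columns, single probe sets, every probe set, fits of single groups and leaving out each replicate.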

Additional observations from a re-analysis of the deposited data

Results flagged for a closer look

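For 12 lipid genes both knockdown repeats lay below control and both rescue repeats above it, a pattern held by 4.45% of all genes. The reverse pattern was held by 0 of the 35 lipid genes and 4.42% of all genes. Sterol synthesis genes made up 7 of the 12: Fdft1 (knockdown minus rescue -1.42), Cyp51 (-1.28), Idi1 (-1.24), Sqle (-1.09), Nsdhl (-0.90), Fdps (-0.87) and Mvd (-0.71). Genes that regulate or serve the sterol sensor made up 3, Stard4 (-0.75), Srebf2 (-0.72) and Insig1 (-0.61). Fatty acid genes made up 2, Acly (-0.62) and Elovl6 (-0.25). The difference itself did not pass limma's test over all genes for any of the 12, with adjusted p from 0.167 for Fdft1 to 0.983 for Elovl6. With the repeat as a block Fdft1, Cyp51, Idi1 and Sqle passed, all lower in the knockdown, as 0.431% of all genes were.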

How the results depend on the processing

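In the knockdown against control 61 genes passed over all genes, and 0 of the 35 lipid genes. With the replicate block the counts were 1074 and 12, after quantile normalization 20 and 0, with scaled columns 39 and 0, with only the knockdown columns 12 and 0, and with every probe set tested 0 and 0 (3873 probe sets at an unadjusted p under 0.05 in limma). Leaving out 1 replicate gave 12 to 1272 genes and 0 to 13 lipid genes (13 without knockdown replicate 1 and 0 without knockdown replicate 2). In the rescue against control, with 0 passing, the block gave 25 genes, quantile normalization 1 and the rescue columns alone 176, 2 of them lipid genes. Leaving out a replicate gave 0 to 176 genes and 0 to 2 lipid genes. In the knockdown against the rescue 14 genes passed and 0 lipid genes, against 123 and 5 with the block, 2 after quantile normalization, 1 with scaled columns, 4 with single probe sets and 0 with every probe set (1317 at an unadjusted p under 0.05). Leaving out a replicate gave 0 to 350 genes and 0 to 12 lipid genes (12 without knockdown replicate 1, 1 without knockdown replicate 2). Where a group kept a lone sample, it was assumed to vary like the other group. The cause of these shifts was not tested.

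The sterol synthesis median stayed below 0 in the knockdown against control under all alternatives (-0.81 to -0.38). Against the rescue it ran from -0.95 without knockdown replicate 1 to -0.47 without knockdown replicate 2. In the rescue it was 0.06, or 0.0276 over single probe sets, 0.233 over every probe set and 0.0586 to 0.174 with a replicate left out. The efflux median against the rescue (0.23) ran from -0.0168 to 0.505 and the fatty acid median in the rescue (0.0534) from -0.053 to 0.0818 in the same way. The means of Scd2 (knockdown against control) and Cyp46a1 (knockdown minus rescue), both near 0, changed sign with scaled columns. Quantile normalization changed the sign of Cyp46a1 too (to -0.0046). It also moved the mean knockdown minus rescue of Calm2 above 0 (to 0.0135), from -0.24 and -0.43 in the 2 repeats as deposited. Leaving out a replicate changed more signs among 36 genes, the lipid genes and Calm2. In the rescue against control 11 changed without rescue replicate 2, among them Hmgcs1 (to 0.05) and Abca1 (to -0.32). In the knockdown against control 6 changed without knockdown replicate 2, among them Msmo1 (to 0.11). Against the rescue 5 changed without knockdown replicate 2. Dim probe sets cannot be told from bright ones, because a ratio holds no intensity.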
